A study of Rattus norvegicus with 7 samples.

Results

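The 33 genes described here belong to the interferon response and to antigen processing, and were measured in differentiating oligodendrocyte progenitor cells of the rat, which give rise to the cells that myelinate axons in the brain. The genes were listed by symbol, and all 33 were found, each in 1 row, among the 32852 genes of the deposited expression table. The cells came from wild-type rats at postnatal day 7, were plated at about 40000 per well of a 12-well plate and moved to differentiating medium at the time of transfection, and were kept there for 4 to 5 days. In 4 cultures (controls 1 to 4) a control siRNA was transfected, and in 3 (siRNLTR12-int 1 to 3) an siRNA targeting RNLTR12-int, the internal part of a rat endogenous retrovirus. Every culture, controls included, thus received lipofection reagent and a small RNA, and no untransfected culture was part of the comparison. The labels number biological replicates but give no animal, culture or date for them, so p-values measure only the spread between these samples, which may be technical. The knockdown was not checked, because RNLTR12-int transcripts were not analysed here.

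Type I interferons are cytokines that most cells can make after sensing viral nucleic acid. RIG-I-like receptors recognise double-stranded RNA in the cytosol and induce interferon through the adaptor Mavs. Interferon then binds its receptor, the kinases Jak1 and Tyk2 phosphorylate Stat proteins, and Stat2 joins Irf9 in a complex that binds the interferon-stimulated response element (ISRE) in the promoters of many antiviral genes. The same signals raise the immunoproteasome, the peptide transporter Tap and class I molecules, by which cells display peptides to T cells. In the brain, astrocytes and microglia are strong responders, and endogenous retroviral transcripts are among the known triggers of the RNA sensors.

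A set of promoters is shown here to set the letters of the response element beside the values that follow: the paralogues Oas1a and Oas1b, Ifit3 and Rsad2 as effectors, and Cxcl10 and Psmb8, which had the most positive difference and the smallest p of the 33. RefSeq promoter windows of assembly GRCr8 (250 bases before to 50 bases after the annotated start of transcription) were matched by symbol for 26 of the 33 genes. Ddx58, Dhx58, Isg15, Usp18, Ifit1, Ifit2 and Mx2 had no entry. An ISRE was searched as GAAANNGAAA on both strands. It was found in 19 of the 26 windows (73.1%), against 3.92% of all 33469 windows of the same length in the table. A gamma-activated site, searched as TTCNNNGAA (the same on both strands), was in 7 of the 26 (26.9%), against 8.87% of all windows. A match is a string of letters and not a measured site of binding. In the windows printed here, 5′ to 3′ in the direction of the gene, capitals mark the ISRE matches, and the annotated start of transcription is base 251. Oas1a lies at chr12:41330216-41330515 (plus strand), Oas1b at chr12:41395803-41396102 (minus strand), Ifit3 at chr1:241527076-241527375 (plus strand), Rsad2 at chr6:48788071-48788370 (minus strand), Cxcl10 at chr14:15988816-15989115 (plus strand) and Psmb8 at chr20:4656982-4657281 (minus strand).
Oas1a: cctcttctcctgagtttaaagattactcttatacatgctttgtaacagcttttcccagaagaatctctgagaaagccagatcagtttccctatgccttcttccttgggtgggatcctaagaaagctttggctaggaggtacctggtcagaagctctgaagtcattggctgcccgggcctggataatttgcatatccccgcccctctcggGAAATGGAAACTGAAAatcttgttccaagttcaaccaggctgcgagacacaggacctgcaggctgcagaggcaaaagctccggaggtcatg
Oas1b: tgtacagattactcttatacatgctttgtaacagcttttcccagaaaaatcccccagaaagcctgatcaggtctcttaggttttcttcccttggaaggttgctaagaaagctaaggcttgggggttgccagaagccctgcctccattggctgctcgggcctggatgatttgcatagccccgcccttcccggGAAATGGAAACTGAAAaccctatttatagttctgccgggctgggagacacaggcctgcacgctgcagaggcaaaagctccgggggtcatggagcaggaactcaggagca
Ifit3: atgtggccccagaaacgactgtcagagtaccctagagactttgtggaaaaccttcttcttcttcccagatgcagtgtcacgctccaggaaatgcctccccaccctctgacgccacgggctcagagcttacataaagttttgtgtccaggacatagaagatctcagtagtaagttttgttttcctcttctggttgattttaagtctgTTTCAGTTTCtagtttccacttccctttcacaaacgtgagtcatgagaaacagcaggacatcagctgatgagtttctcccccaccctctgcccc
Rsad2: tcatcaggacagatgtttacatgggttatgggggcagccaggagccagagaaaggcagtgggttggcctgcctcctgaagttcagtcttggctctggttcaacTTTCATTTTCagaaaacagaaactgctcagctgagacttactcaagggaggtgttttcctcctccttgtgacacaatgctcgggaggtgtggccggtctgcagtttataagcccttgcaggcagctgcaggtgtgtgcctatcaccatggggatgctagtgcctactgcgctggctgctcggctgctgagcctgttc
Cxcl10: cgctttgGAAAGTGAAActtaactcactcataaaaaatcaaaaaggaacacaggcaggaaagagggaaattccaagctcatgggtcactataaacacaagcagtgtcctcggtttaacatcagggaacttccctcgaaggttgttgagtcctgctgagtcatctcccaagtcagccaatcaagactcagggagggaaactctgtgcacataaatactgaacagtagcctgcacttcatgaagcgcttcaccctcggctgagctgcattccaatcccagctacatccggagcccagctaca
Psmb8: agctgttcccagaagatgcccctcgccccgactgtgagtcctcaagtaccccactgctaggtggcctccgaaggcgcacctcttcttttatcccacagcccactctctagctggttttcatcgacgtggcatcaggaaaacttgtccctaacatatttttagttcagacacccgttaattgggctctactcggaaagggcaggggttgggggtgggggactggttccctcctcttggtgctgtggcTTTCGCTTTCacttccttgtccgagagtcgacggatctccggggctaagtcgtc

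The paralogues Oas1a and Oas1b carried the same run of 16 capital letters, made of overlapping ISRE matches, which began 41 bases before the annotated start in Oas1a and 59 bases before it in Oas1b. The match of Ifit3 began 44 bases before the start, that of Rsad2 147 bases, that of Cxcl10 243 bases and that of Psmb8 4 bases before it. Windows without an ISRE match belonged to Stat2, Irf9, Herc6, Oasl, Mx1, Parp9 and Psmb9. The windows of Tap1 and Psmb9, which are read in opposite directions, shared 44 bases.

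The libraries held 22523873 to 61803693 recovered reads (whole reads regained from the normalised counts). Progenitor markers were present in all 7 (summed normalised counts of 7 genes, Pdgfra and Olig2 among them, 248678 to 416921), as were oligodendrocyte markers (12 genes, 76710 to 1001921). The libraries fell into 2 sets that cut across the siRNA groups. Controls 1 and 2 and siRNLTR12-int 1 had astrocyte marker sums of 709152 to 857936 normalised counts (18 genes), and the other 4 libraries 213499 to 227743. Microglia and macrophage marker sums were 11400 to 30859 in the first set and 5132 to 6521 in the second (19 genes, none at 0 in any library), and lymphocyte sums 451 to 1263 and 134 to 202 (9 genes, 7 of them at 0 in some library). Of the 7 vascular and fibroblast genes with a mean of at least 10, 2 parted this way. In control 2 the pericyte gene Pdgfrb gave 2808 of a sum of 3196 (10 genes), while Col1a1 (156.7) was lowest of the 7 libraries there. Neuron marker sums were 26692 to 28540 and 30519 to 35094 (11 genes), and progenitor sums 248678 to 262464 and 347478 to 416921. Of the 7 progenitor genes, 4 were lower in every library of the first set than in the second, and 0 were higher. The first set is called the astrocyte-rich set and the second the astrocyte-poor set. No group label gives this split. In bulk libraries, more cells of a type and more RNA per cell cannot be told apart.

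The interferon genes were high in the same 3 libraries as the astrocyte markers. The mean log2(normalised count + 1) of the 33 genes, called their level, was 10.07, 10.18, 8.34 and 8.46 in controls 1 to 4 and 10.67, 8.54 and 8.54 in siRNLTR12-int 1 to 3. The level was thus higher in each of the 3 astrocyte-rich libraries than in any of the 4 others, and highest in siRNLTR12-int 1. The controls averaged 9.26 ± 1.0 (SD, n = 4), and the siRNLTR12-int libraries averaged 9.25 ± 1.23 (SD, n = 3). In 31 of the 33 genes every astrocyte-rich library lay above every astrocyte-poor one, against 18.6% of the 18225 genes tested, those whose normalised counts averaged at least 10. The lowest value of the 3 was a median of 2.39 times the highest of the 4, and 15.4 times in Oas1a. Isg15 and Psmb8 were the exceptions. Astrocyte markers (15 of 18) lay apart in the same way, but their mean level had placed the split. Microglia markers (16 of 19) lay apart too, with mean levels of 9.76 and 8.26 in controls 1 and 2 and 9.48 in siRNLTR12-int 1. Control 2 was thus below control 1 in them, whereas the level of the 33 genes was slightly higher in control 2. What part astrocytes and microglia have in the levels of the interferon genes was not tested.

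**Figure D1:**
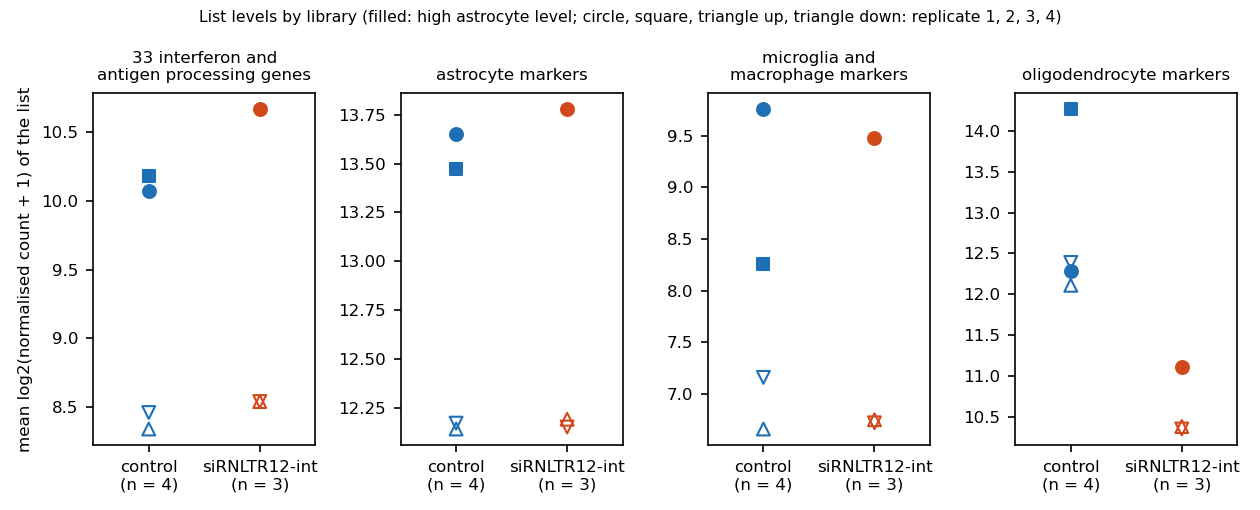
Level (mean log2 of normalised count + 1) of the 33 genes and of 3 marker lists in each library, by siRNA group, with filled points for the astrocyte-rich libraries and circle, square, upward and downward triangle for replicates 1 to 4. The 33 genes were at 10.07 and 10.18 in controls 1 and 2 and 10.67 in siRNLTR12-int 1, and at 8.34 to 8.54 in the 4 others, the order in which astrocyte markers also part, whereas oligodendrocyte markers were lower in the 3 siRNLTR12-int libraries.

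Between the siRNA groups no member passed the test. With limma on log2(normalised count + 1), 0 of the 33 had a Benjamini-Hochberg adjusted p under 0.05, where 0% of the 18225 genes passed. At an unadjusted limma p under 0.05 there were also 0 of 33, against 6.3% of all genes, and edgeR on recovered reads had 0 of 33 at an unadjusted p under 0.05, against 6.39% of all genes, and called 0, as it did of all genes. Of the 33 differences (siRNLTR12-int minus control), 14 were positive and 19 negative, with a median of -0.06 on the log2 scale against 0.01 over all genes, and limma adjusted p-values ran from 0.875 to 0.999. The standard errors had a median of 0.69, against 0.22 over all genes, so that the test had little precision for these genes. The siRNA groups lay apart in 0 of 33, against 7.68% of all genes. Each siRNA group holds libraries of both sets. In the 31 genes with every astrocyte-rich library above every astrocyte-poor one, the siRNA groups therefore had to overlap, and this count says nothing about the siRNA there. The authors' deposited table called 0 of 33 at an adjusted p under 0.05, against 0.752% of the 18747 genes with an adjusted p there, and the smallest adjusted p of a member in it was 0.584, in Cxcl10.

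This near-zero difference depended on siRNLTR12-int 1. That library is the only astrocyte-rich one of its group. Without it, astrocyte-poor siRNLTR12-int libraries alone are set against controls of both sets. The siRNA and the split cannot be told apart in that fit. In it, 31 of 33 limma differences were negative, against 49.7% of all genes, with a median of -0.66 against 0.00. The exceptions were Cxcl10 (0.24) and Tap1 (0.02). At an unadjusted p under 0.05 there was 1 member, Psmb8 (log2 -0.58 ± 0.17 SE, limma adjusted p = 0.344), against 13.0% of all genes, and after adjustment 0 of 33 passed, as did 0% of all genes. With the 2 sets entered as a block, 27 of 33 differences were positive, against 51.4% of all genes, and the median was 0.26, against 0.01 over all genes. At an unadjusted p under 0.05 that limma fit had 13 of 33 higher and 0 lower, where 8.38% of all genes were higher. The 33 genes share a pathway and the same libraries, so such counts of members are not separate observations. In the astrocyte-rich set this fit has only siRNLTR12-int 1 from its group. After adjustment 0 of 33 passed, as did 0% of all genes, and the smallest adjusted p of a member was 0.19.

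**Figure D2:**
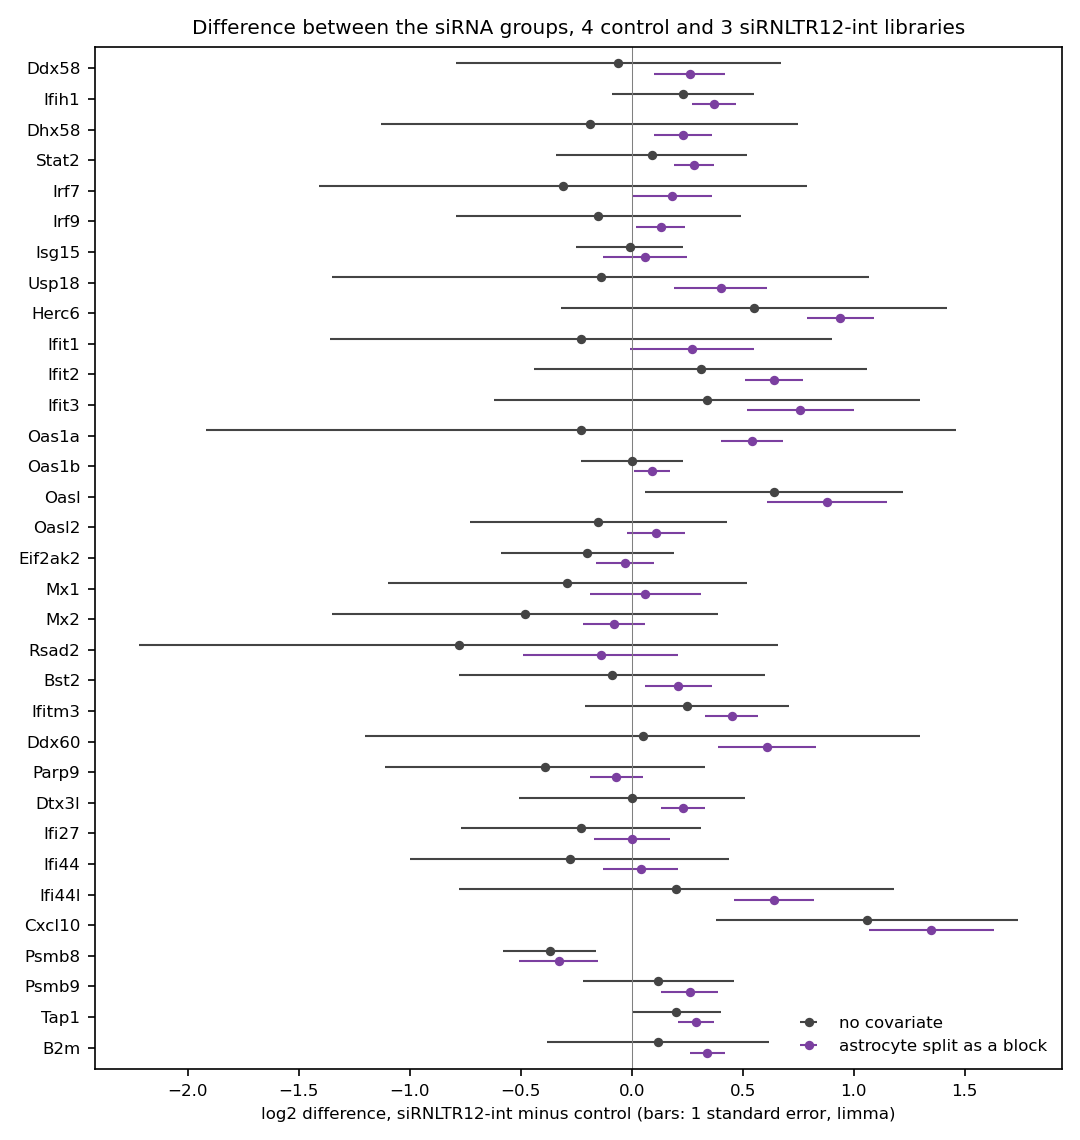
Limma log2 difference between the siRNA groups (siRNLTR12-int minus control) for each of the 33 genes, with bars of 1 standard error, without a covariate (grey) and with the astrocyte split as a block (purple). Standard errors shrink from a median of 0.69 to 0.15 with the block, and 27 of 33 differences then lie above 0.

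Within the astrocyte-rich set siRNLTR12-int 1 exceeded both controls 1 and 2 in 29 of 33 genes, against 33.3% of all genes, and it was the highest of all 7 libraries in the same number, against 19.3%. The set has a single siRNLTR12-int library, so this has no replicate check. Within the astrocyte-poor set siRNLTR12-int 2 and 3 both exceeded controls 3 and 4 in 14 of 33 genes, against 31.2% of all genes, and both lay below them in 3 (Mx1, Mx2 and Psmb8), against 25.3%. The median log2 difference was 0.45 in the first set and 0.11 in the second, against 0.01 over all genes in each. In the 4 astrocyte-poor libraries alone, limma called 3 of 33 (Herc6, Cxcl10 and B2m, all higher) at an adjusted p under 0.05, a share of members near the 7.88% called among all genes there.

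**Figure D3:**
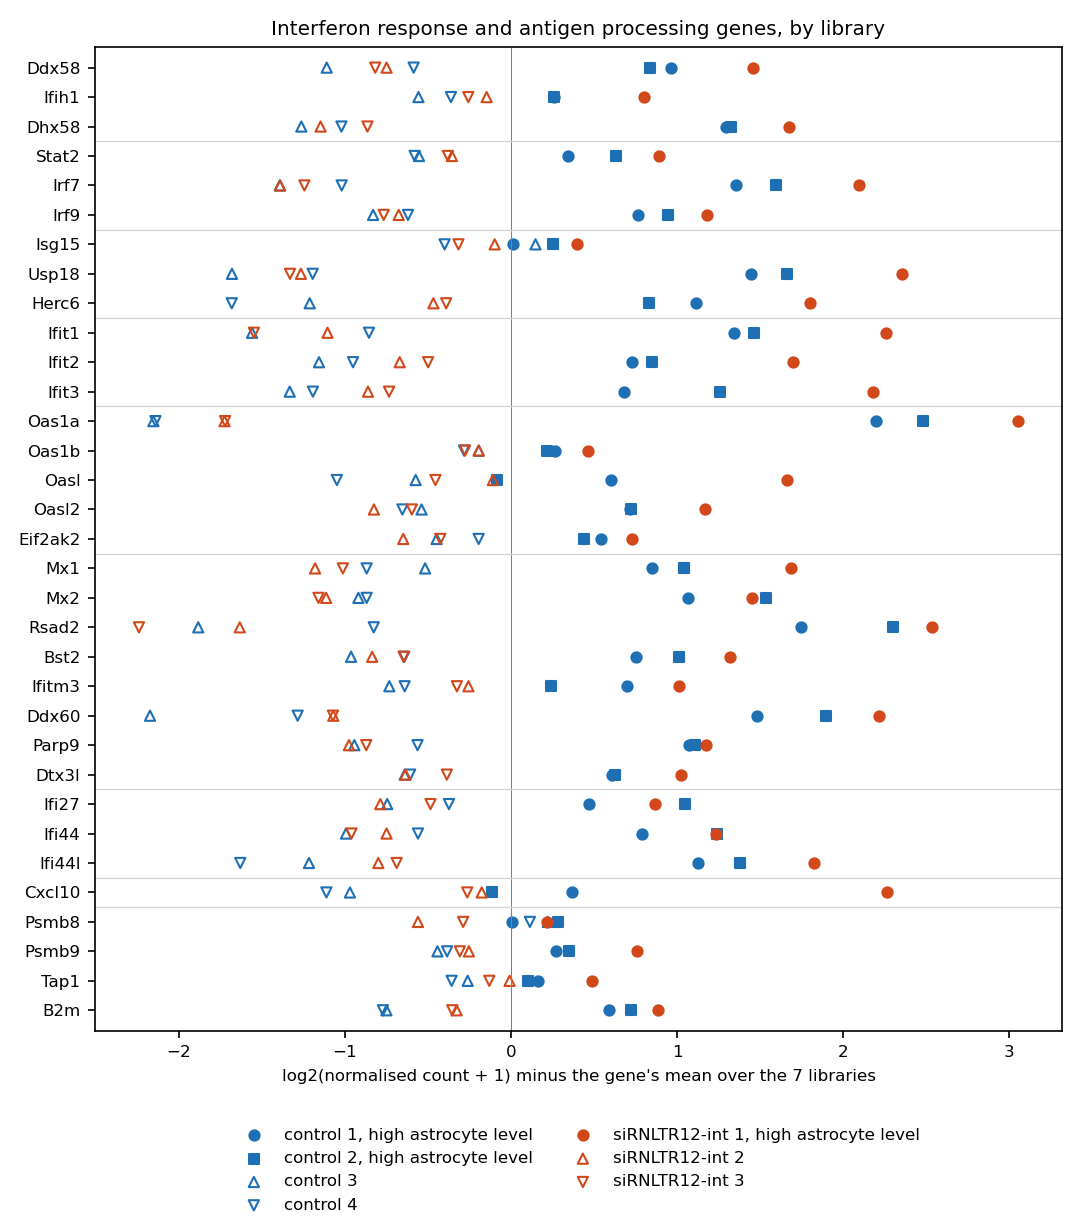
Value of each gene in each library as log2(normalised count + 1) minus the gene's mean over the 7 libraries, in the order of the text, with filled points for astrocyte-rich libraries, blue for control and red for siRNLTR12-int. Filled points lie right of open ones in 31 of 33 rows, and Oas1a has the widest gap, while Isg15 and Psmb8 overlap.

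The RNA sensors were all high in the astrocyte-rich set. Ddx58 (ENSRNOG00000006384) encodes RIG-I, which binds RNA with a 5′ triphosphate. It had 2170, 1985, 514.5 and 739.8 normalised counts in controls 1 to 4 and 3048, 660.8 and 630.2 in siRNLTR12-int 1 to 3 (limma log2 difference -0.06 ± 0.73 SE, adjusted p = 0.998). Dhx58, which encodes the regulatory helicase LGP2, had 778.9, 795.3, 131.9 and 156.1 normalised counts in the controls against 1017, 143 and 174.1. In both genes siRNLTR12-int 1 lay above controls 1 and 2, and the lowest of these 3 was 2.68 and 4.47 times the highest of the 4 other libraries, in which the siRNA groups overlapped. Ifih1, the gene of the long double-stranded RNA sensor MDA5, had a narrower range, with 863.1, 862.1, 489.5 and 560.6 normalised counts in the controls against 1254, 650.7 and 602.8. In Ifih1 both siRNLTR12-int 2 and 3 exceeded controls 3 and 4, and the difference with the block was 0.37 ± 0.10 SE (limma unadjusted p = 0.00912, adjusted p = 0.227).

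The transcription factors that carry the signal differed in how far they were spread. Irf7 (ENSRNOG00000017414), the factor that amplifies interferon production, had 1656, 1956, 246.5 and 319.3 normalised counts in controls 1 to 4 and 2772, 246.8 and 273.2 in siRNLTR12-int 1 to 3. The lowest astrocyte-rich library was 5.19 times the highest astrocyte-poor one, and siRNLTR12-int 1 was 1.67 times control 1 and 1.42 times control 2. Irf9, the DNA-binding subunit of the interferon-activated complex, had 2009, 2283, 665.4 and 769.9 normalised counts in the controls against 2678, 740.5 and 695.5. Stat2, its partner, had 3943, 4813, 2119 and 2081 normalised counts in the controls against 5780, 2431 and 2390. The corresponding gap was 2.61 times in Irf9 and 1.62 times in Stat2, and in Stat2 alone of the 3 did siRNLTR12-int 2 and 3 both exceed controls 3 and 4. None of the limma differences exceeded its standard error (-0.31 ± 1.10, -0.15 ± 0.64 and 0.09 ± 0.43 SE).

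The genes of the ISG15 system, in which a ubiquitin-like protein is joined to targets and removed again, did not behave alike. Isg15 (ENSRNOG00000021802), the modifier itself, had 149.3, 176.3, 163.8 and 111.8 normalised counts in controls 1 to 4 and 194.6, 138 and 118.5 in siRNLTR12-int 1 to 3. Control 3 lay above control 1 and the sets overlapped, at 63 to 243 recovered reads per library. The group means of Isg15 were 150.3 in controls and 150.3 after the siRNA, with a 95% confidence interval of the log2 difference from -0.58 to 0.56 (limma). Usp18, the protease that removes ISG15 and also restrains the interferon receptor, had 436.3, 507.2, 49.13 and 69.19 normalised counts in the controls against 820.4, 65.83 and 62.86. In Usp18 the astrocyte-rich libraries stood at least 6.31 times above the others, and the siRNA groups overlapped within the low set. Herc6, which encodes the ligase that attaches ISG15 in rodents, had 942.5, 772.1, 187 and 134.8 normalised counts in the controls against 1516, 313.9 and 331.2. Herc6 was higher in the siRNLTR12-int libraries within both sets, by 0.83 and 1.02 on the log2 scale. With the block its difference was 0.94 ± 0.15 SE (limma unadjusted p = 0.000402, adjusted p = 0.19), and in the 4 astrocyte-poor libraries alone its limma adjusted p was 0.0258.

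Members of the Ifit family, whose proteins bind foreign RNA and block its translation, shared the high set but not the direction in the low one. Ifit1, which binds 5′ triphosphate ends, had 418.1, 455, 55.16 and 90.48 normalised counts in the controls against 789.3, 75.95 and 55.61. Ifit2 had 768.4, 836.7, 207.7 and 239.5 normalised counts in the controls against 1504, 291.2 and 328. Ifit3, which stabilises Ifit1 and whose promoter is printed above, had 145.4, 217.7, 35.34 and 39.03 normalised counts in the controls against 412.9, 49.37 and 54. In all 3 genes siRNLTR12-int 1 was the highest library, at 1.73, 1.8 and 1.9 times the next one. In the astrocyte-poor set Ifit2 and Ifit3 were higher in both siRNLTR12-int libraries (log2 0.47 and 0.46), whereas Ifit1 overlapped (log2 -0.12). The neighbours Ifit2 and Ifit3 adjoin each other on chromosome 1 in the RefSeq gene order. Ifit3 rested on as few as 22 recovered reads in a library, so its low values are less precise.

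The oligoadenylate synthetases make the messenger that activates RNase L, and the paralogues Oas1a and Oas1b differed in how wide the gap between the sets was. Oas1a (ENSRNOG00000001369) had 916.7, 1115, 43.96 and 44.35 normalised counts in controls 1 to 4 and 1656, 59.5 and 59.64 in siRNLTR12-int 1 to 3. Its lowest astrocyte-rich library was 15.4 times its highest astrocyte-poor one, the widest gap of the 33 genes. Oas1b (ENSRNOG00000033220) had 3172, 3064, 2305 and 2168 normalised counts in controls 1 to 4 and 3631, 2305 and 2177 in siRNLTR12-int 1 to 3, with a gap of 1.33 times. The pair carry the same ISRE run in the printed windows, and no source used here says how reads of such related copies were divided, so their separate values are uncertain. The same holds for Oasl and Oasl2, for Mx1 and Mx2 and for the Ifit genes. In Oas1a siRNLTR12-int 2 and 3 were just above controls 3 and 4, with as few as 25 recovered reads in a library, and the log2 difference with the block was 0.54 ± 0.14 SE (limma unadjusted p = 0.00619, adjusted p = 0.213). Oas1b had 0.09 ± 0.08 SE in the same fit.

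Oasl and Oasl2 encode related proteins and are next to each other on chromosome 12. Oasl had 459.3, 285.2, 202.5 and 145.5 normalised counts in the controls against 955.6, 279.8 and 220. It set siRNLTR12-int 1 apart more than the split did, since that library was 2.08 times the next one while control 2 stood only 1.02 times above siRNLTR12-int 2. Oasl2, an active synthetase, had 2202, 2209, 920.5 and 849.8 normalised counts in the controls against 3003, 754.5 and 884.1. Eif2ak2, the gene of the kinase PKR that halts translation on double-stranded RNA, had 3739, 3487, 1883 and 2244 normalised counts in the controls against 4259, 1638 and 1912. The limma log2 differences were 0.64 ± 0.58, -0.15 ± 0.58 and -0.20 ± 0.39 SE, all with adjusted p-values of at least 0.953.

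All 8 genes grouped here as Mx GTPases and other antiviral effectors had higher values in the 3 astrocyte-rich libraries than in the 4 others. Mx1, a GTPase that traps viral nucleocapsids, had 724.3, 828.7, 281 and 220 normalised counts in the controls against 1298, 177.2 and 199.1. Mx2, its relative, had 7659, 10630, 1937 and 2005 normalised counts in the controls against 10026, 1693 and 1640. Both genes had lower values in siRNLTR12-int 2 and 3 than in controls 3 and 4 (log2 -0.40 and -0.24), although Mx1 was highest of all in siRNLTR12-int 1. Rsad2 (ENSRNOG00000007539), which encodes viperin, an enzyme that makes a chain-terminating nucleotide, had 1418, 2080, 113.8 and 237.7 normalised counts in controls 1 to 4 and 2447, 135.5 and 88.65 in siRNLTR12-int 1 to 3. Its difference of -0.78 ± 1.44 SE was the most negative of the 33 and lay within its error, with a 95% confidence interval from -4.16 to 2.60 (limma adjusted p = 0.984). Without siRNLTR12-int 1 it was -2.27.

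Bst2, or tetherin, holds budding virus at the cell surface, and had 477.5, 572.5, 144.8 and 181 normalised counts in the controls against 707.1, 158.2 and 180.5. Ifitm3, which blocks fusion of virus in endosomes, had 1424, 1037, 527.5 and 562.4 normalised counts in the controls against 1766, 734.2 and 699.5. Ddx60, a helicase that promotes RIG-I signalling, had 1138, 1522, 89.64 and 166.8 normalised counts in the controls against 1897, 193.7 and 193.4. Bst2 overlapped between the siRNA groups within the astrocyte-poor set, whereas Ifitm3 and Ddx60 were higher in siRNLTR12-int 2 and 3 (log2 0.40 and 0.66). The block gave 0.45 ± 0.12 and 0.61 ± 0.22 SE for these genes (limma unadjusted p = 0.00836 and 0.0303, adjusted p = 0.225 and 0.306).

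Parp9 and Dtx3l encode partners of an ADP-ribosyltransferase and ubiquitin ligase complex and adjoin each other on chromosome 11. Parp9 had 2415, 2479, 598.1 and 778.8 normalised counts in the controls against 2593, 584.8 and 628.6. Dtx3l had 2500, 2533, 1051 and 1075 normalised counts in the controls against 3334, 1054 and 1253. The gap between sets was 3.1 times in Parp9 and 2 times in Dtx3l. siRNLTR12-int 1 exceeded the higher of controls 1 and 2 by 1.05 times in Parp9 and 1.32 times in Dtx3l.

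In the interferon-induced genes Ifi27, Ifi44 and Ifi44l every astrocyte-rich library lay above the 4 others. Ifi27, which encodes a small membrane protein of mitochondria and the nuclear envelope, had 2862, 4265, 1231 and 1593 normalised counts in the controls against 3765, 1196 and 1475. Ifi44 had 1165, 1593, 338.7 and 457.7 normalised counts in the controls against 1589, 401.3 and 346.5, and its neighbour on chromosome 2, Ifi44l, had 209.6, 249.6, 40.51 and 30.16 normalised counts in the controls against 339.8, 54.43 and 58.83. Control 2 was the highest library in Ifi27 and, barely above siRNLTR12-int 1, in Ifi44, and siRNLTR12-int 1 was highest in Ifi44l. Ifi44l rested on as few as 17 recovered reads in a library, and its difference with the block was 0.64 ± 0.18 SE (limma unadjusted p = 0.00986, adjusted p = 0.229).

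Cxcl10 (ENSRNOG00000022256), a chemokine that attracts T cells and is induced by interferon and by NF-kB signals, had the most positive difference of the 33. It had 382.7, 273.6, 150.8 and 136.6 normalised counts in controls 1 to 4 and 1424, 262 and 246.6 in siRNLTR12-int 1 to 3. siRNLTR12-int 1 was 3.72 times control 1 and 5.21 times control 2, and siRNLTR12-int 2 and 3 together were 1.77 times controls 3 and 4. All siRNLTR12-int libraries were thus above the controls of their own set, while the groups as a whole overlapped, because controls 1 and 2 lay above siRNLTR12-int 2 and 3. The limma log2 difference was 1.06 ± 0.68 SE, with a 95% confidence interval from -0.53 to 2.66 (adjusted p = 0.902), and the authors' deposited table gave 1.45 ± 0.68 SE (p = 0.0334, adjusted p = 0.584, DESeq2). With the block it was 1.35 ± 0.28 SE (limma unadjusted p = 0.00209, adjusted p = 0.191). Without siRNLTR12-int 1 the limma difference was 0.24.

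Of the 4 antigen processing genes, 3 had higher values in every astrocyte-rich library. B2m (ENSRNOG00000017123), the invariant chain of class I molecules, had 28933, 31602, 11414 and 11249 normalised counts in controls 1 to 4 and 35444, 15298 and 15022 in siRNLTR12-int 1 to 3. In B2m siRNLTR12-int libraries exceeded the controls of their set in both sets (log2 0.23 and 0.42), with 0.34 ± 0.08 SE with the block (limma unadjusted p = 0.00291, adjusted p = 0.2) and an adjusted p of 0.0185 in the 4 astrocyte-poor libraries alone. Tap1, a subunit of the transporter that carries peptides to class I molecules, had 947.3, 912.1, 707.6 and 661.7 normalised counts in the controls against 1190, 843.1 and 774.5. Psmb9, an immunoproteasome subunit whose promoter window overlaps that of Tap1, had 235.4, 248.9, 143.1 and 149 normalised counts in the controls against 330.7, 163.3 and 157.2. Both were higher in siRNLTR12-int 2 and 3 than in controls 3 and 4, and both were highest in siRNLTR12-int 1.

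Psmb8 (ENSRNOG00000000456), the other immunoproteasome subunit of that locus, did not follow its neighbours. It had 240.2, 291.7, 279.2 and 259 normalised counts in controls 1 to 4 and 278.6, 162 and 195.8 in siRNLTR12-int 1 to 3. Controls averaged 267.5 ± 22.68 (SD, n = 4) whatever their set, siRNLTR12-int 1 lay among them, and siRNLTR12-int 2 and 3 lay below all other libraries. The limma log2 difference was -0.37 ± 0.21 SE, with a 95% confidence interval from -0.85 to 0.12 (unadjusted p = 0.118, adjusted p = 0.875), the smallest p of the 33. Tap1 and Psmb8 are adjacent on chromosome 20, and Tap1 and Psmb9 as well.

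**Figure D4:**
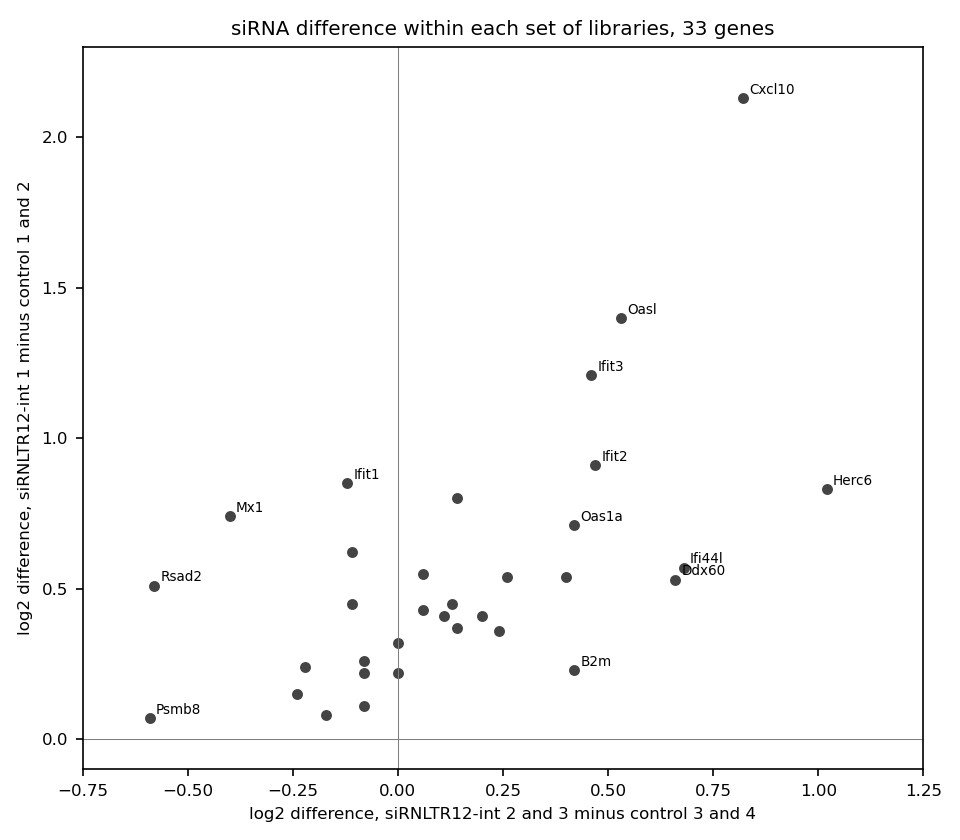
For each of the 33 genes, the log2 difference of siRNLTR12-int 2 and 3 from controls 3 and 4 (horizontal, astrocyte-poor set) and of siRNLTR12-int 1 from controls 1 and 2 (vertical, astrocyte-rich set), on log2(normalised count + 1). All points lie above 0 on the vertical axis, Cxcl10 is highest at 2.13 and 0.82, and Psmb8, Rsad2 and Mx1 lie furthest left.

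Other genes of the pathway were read from lists written with earlier results known. Of 10 interferon ligand genes listed, 9 were in the table and 1 reached a mean of 10. Ifnb1, Ifng, Ifne, Ifna5 and Ifnl3 had at most 1 recovered read in any library, Ifnl1 at most 2, Ifna4 at most 4 and Ifna2 at most 12, so that no difference in them was detectable at this depth. Ifnk had 30.62, 126.3, 21.55 and 24.84 normalised counts in controls 1 to 4 and 16.44, 10.13 and 10.48 in siRNLTR12-int 1 to 3. All 4 controls lay above all 3 siRNLTR12-int libraries, with control 2 highest (-1.58 ± 0.63 SE, limma adjusted p = 0.772). The siRNA groups lay apart, in either direction, in 7.68% of all genes.

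Of 11 receptor and kinase genes 0 passed with limma, with 8 positive and 3 negative differences. At an unadjusted limma p under 0.05, 1 was higher, where 6.3% of all genes passed in either direction. The receptor chains of type I interferon, Ifnar1 and Ifnar2, had 5859 ± 892.6 (SD, n = 4) normalised counts in controls against 7232 ± 1754 (SD, n = 3) and 1034 ± 67.99 (SD, n = 4) normalised counts in controls against 1116 ± 93.9 (SD, n = 3) (limma differences 0.29 ± 0.18 and 0.11 ± 0.11 SE). Those of interferon gamma, Ifngr1 and Ifngr2, differed by -0.12 ± 0.18 and 0.25 ± 0.15 SE, and those of the lambda receptor, Il10rb and Ifnlr1, by 0.26 ± 0.40 and 0.34 ± 0.24 SE. The kinase Jak1 had 6722, 5999, 5814 and 5345 normalised counts in the controls against 7185, 7340 and 7223, and differed by 0.28 ± 0.10 SE (limma unadjusted p = 0.0236, adjusted p = 0.712). Il10rb lay apart between the sets, with its lowest astrocyte-rich library at 1.1 times its highest astrocyte-poor one.

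Of 16 sensing and adaptor genes measured, 0 passed with limma. In 10 every astrocyte-rich library lay above every astrocyte-poor one, against 18.6% of all genes. Aim2, a sensor of cytosolic DNA, had 252.6, 533.4, 237 and 310.5 normalised counts in the controls against 134.3, 69.62 and 52.38. It was the lowest in the 3 siRNLTR12-int libraries in both sets and fell in the authors' deposited table (log2 -1.96, adjusted p = 0.00563, DESeq2), while limma gave -1.99 ± 0.40 SE (unadjusted p = 0.00149, adjusted p = 0.647). Mavs, the adaptor of the RNA sensors, differed by -0.34 ± 0.18 SE and Irf3, the factor it activates, by 0.22 ± 0.12 SE. Of 10 negative regulators and nucleases 0 passed with limma. At an unadjusted limma p under 0.05, 2 were higher, where 6.3% of all genes passed in either direction. In 3 every astrocyte-rich library lay above every astrocyte-poor one, against 18.6% of all genes. Socs3, an inhibitor of cytokine receptors, had 686.1, 320.7, 426.6 and 345.9 normalised counts in the controls against 728.1, 912.7 and 805.1, and the exonuclease gene Isg20 had 136.8, 100.1, 110.3 and 149 normalised counts in the controls against 159, 169.6 and 183.7. Their limma differences were 0.93 ± 0.27 and 0.47 ± 0.19 SE (adjusted p = 0.662 and 0.78), and Samhd1, which degrades nucleotides, differed by 0.27 ± 0.15 SE. In Isg20 all 3 siRNLTR12-int libraries lay above all 4 controls, and in Socs3 too. The siRNA groups lay apart in 7.68% of all genes, and these genes were named for their small limma p.

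Among 39 further interferon-induced genes 36 were higher in every astrocyte-rich library than in every other one, against 18.6% of all genes. Of the 39, 21 had a positive and 18 a negative siRNA difference, and the median was 0.07. With limma 0 passed and 1 was higher at an unadjusted p under 0.05, where 6.3% of all genes passed in either direction. That gene, Ifitm10, a distant relative of Ifitm3, had 751.1, 559.5, 730.9 and 663.5 normalised counts in the controls against 800.3, 1287 and 1292, and was not among the 36. The RNA helicase gene Mov10 differed by 0.40 ± 0.24 SE and Epsti1 by -1.60 ± 1.28 SE. Of 29 further antigen processing genes tested, 11 were higher in every astrocyte-rich library than in every other one, against 18.6% of all genes. A positive siRNA difference was found in 17 and a negative one in 12, and 0 passed with limma. The peptide-loading protein gene Tapbp differed by 0.20 ± 0.13, the peptidase gene Erap1 by 0.23 ± 0.15 and the proteasome activator gene Psme1 by 0.26 ± 0.19 SE.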

How the data were processed

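Ribosomal RNA was removed and strand-marking paired-end libraries were made, per the labels. The 4 control and 3 siRNLTR12-int samples were analysed from the deposited table of normalised counts (a signal per gene). Per the submitters' processing notes, Salmon, DESeq2 and Rnor_6.0 were used. Their roles and versions are not given in the sources used here. The authors' deposited table also holds DESeq2 log2 fold changes with a standard error, a test score and p-values, printed only where that table is named.

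The normalised counts were whole multiples of 1 step per library, so whole reads were recovered for 100% of values (tolerance 0.01). Genes with a mean of at least 10 were tested with limma 3.58.1 (R 4.3.3) on log2(normalised count + 1), siRNLTR12-int against control, with Benjamini-Hochberg adjustment over all genes and a threshold of 0.05. Fold changes on this scale understate low genes. edgeR 4.0.16 and DESeq2 1.42.0 were run on recovered reads. The astrocyte split was placed at the widest gap in the mean level of astrocyte markers. Genes named in the results are all 33 members, the interferon ligands and receptors, the 3 genes of each other pathway list with the smallest limma p, and any the authors' table called. A further gene that the rule names is not reported here. Marker genes named singly, and those of the closing section, were chosen after their values were seen. The members and lists were chosen with earlier results of these data known. Scripts were tested on simulated data. Alternatives changed scaling, filter, pseudocount, covariates and libraries.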

Additional observations from a re-analysis of the deposited data

How the results depend on the processing

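The number of all genes called with limma was 0, and was 141 with DESeq2 on recovered reads, 839 with array weights, 3 with the microglia level as a covariate and 1415 in the 4 astrocyte-poor libraries alone. Leaving out 1 library at a time gave 0 to 2 calls. Members called were 3 in the astrocyte-poor libraries alone and 0 under every other alternative run. There the fit has fewer samples and no astrocyte-rich library, and the cause was not tested further. The difference in mean level of the 33 genes was -0.01 and ran from -0.73 (without siRNLTR12-int 1) to 0.34 over the alternatives, with the sign changing among them. The control SD of 1.0 holds the difference between the sets and is no measure of its precision within them. Of 693 values of members under alternatives, 3 passed the threshold that had not, 5 were classed as moved without passing it, and 685 as the same. Since no member was called, no call could be reversed. Without siRNLTR12-int 1, the only astrocyte-rich library of its group, 12 members changed sign. Whether replicate numbers pair the samples could not be decided (correlations 0.75, -0.19 and 0.63 for replicates 1, 2 and 3). Replicates 1 and 3 each joined libraries of the same set, and replicate 2 did not. With the replicate number as a block 0 genes and 0 members were called and the level difference was -0.28. TMM rescaling moved libraries by at most 0.019 on the log2 scale and changed no member's sign. Depth limits the genes with few reads in some library, such as Oas1a (25), Ifit3 (22) and Ifi44l (17), and the interferon ligands.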

Other observations

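Class II antigen presentation genes parted the libraries in another way than the 33 genes did. Cd74, the class II invariant chain, had 1377, 65.31, 147.4 and 136.6 normalised counts in controls 1 to 4 and 825.9, 79.75 and 70.11 in siRNLTR12-int 1 to 3. RT1-Ba, a class II alpha chain, had 343.5, 18.87, 37.92 and 37.25 against 142.5, 11.39 and 14.51. Control 1 and siRNLTR12-int 1 were thus high, while control 2, which was high in 31 of the 33 genes, was low in both. Ciita, the class II transactivator, had 60.28, 14.51, 23.27 and 19.51 against 53.9, 25.32 and 21.76. The macrophage receptor gene Csf1r had 3228, 1049, 315.4 and 436.4 against 2502, 235.5 and 293.4, with control 2 between the others. What part microglia have in these values was not tested.

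Some class I genes had higher values in all 3 astrocyte-rich libraries than in the 4 others, and some did not. Nlrc5, the class I transactivator, had 704.2, 569.6, 118.9 and 269.7 normalised counts in controls 1 to 4 and 1087, 149.4 and 145.9 in siRNLTR12-int 1 to 3. RT1-S3 had 1769, 1193, 549 and 553.5 against 2274, 426.6 and 512.6. RT1-CE5 had 307.1, 134.2, 118.1 and 159.7 against 255.8, 179.8 and 173.3, with control 2 below siRNLTR12-int 2 and 3. RT1 genes have near-identical copies, so their separate values are uncertain. The constitutive proteasome subunit gene Psmb5 had 1095, 1418, 1253 and 1416 against 1092, 1398 and 1382, and did not part the sets this way. The genes of these paragraphs were chosen after their values were seen.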
